A study of Mus musculus with 16 samples.

Results

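The transcripts of 10 Kruppel-like factor genes (Klf2, Klf3, Klf4, Klf5, Klf6, Klf9, Klf10, Klf11, Klf13 and Klf15) were followed in cardiomyocytes from pressure-loaded and sham-operated mouse hearts. They are the rows of the deposited count table that carry these symbols, 10 of 57010 gene models. Of these, 9 passed the filter on low counts and were tested beside 14066 genes in all, and Klf5 did not pass. The cells came from adult C57BL/6 hearts, labelled as wild type and with no age in weeks. Each mouse had been injected with AAV9, an adeno-associated virus used to carry genes into the heart, either as the control AAV9-Vector or as AAV9-PRODH, so no group is free of virus. PRODH stands for proline dehydrogenase, which starts the oxidation of proline in mitochondria, and the series describes its overexpression as specific to the heart without naming the promoter. Sham surgery or transverse aortic constriction (TAC), a narrowing of the aortic arch that raises the pressure load of the left ventricle, came 3 weeks after the injection, and cells were taken 4 weeks after surgery. The 4 groups of 4 libraries are vector sham (AAV9-Vector, sham), vector TAC (AAV9-Vector, TAC), PRODH sham (AAV9-PRODH, sham) and PRODH TAC (AAV9-PRODH, TAC). Whether libraries of a group are separate animals is not stated, so the p-values rest on the spread between libraries, and that spread may be technical.

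Kruppel-like factors are transcription factors with a carboxy-terminal row of zinc fingers that reads GC-rich and CACCC-type sites, and they differ mainly in the activator or repressor domains in front of it. In the heart Klf15 is known for driving the use of fats and amino acids and for holding back growth genes, and it follows glucocorticoids and the circadian clock. Klf2 and Klf4 are known as flow-responsive factors of the endothelium, Klf5 as a factor of smooth muscle and fibroblast remodelling, and Klf10 and Klf11 as early genes of transforming growth factor beta (TGF-beta).

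Promoters are shown for the members whose window holds the E-box CACGTG, the site read by the core clock activators, since Klf15 is a clock-linked member. The windows are the 250 bases before the transcription start in the RefSeq table of build GRCm38.p6, which had an entry for 8 of the 10 members and none for Klf5 and Klf10. The deposited counts name no build in the sources used here, and genes were matched to this table by symbol. Both strands were searched for CACGTG, which reads the same on each. It occurred in 4 of the 8 windows, against 6.02% of 32851 promoters in the table. Each sequence is written 5′ to 3′ on the strand of the gene, with the E-box in capitals.
Klf15 (chr6:90462326-90462575, plus strand): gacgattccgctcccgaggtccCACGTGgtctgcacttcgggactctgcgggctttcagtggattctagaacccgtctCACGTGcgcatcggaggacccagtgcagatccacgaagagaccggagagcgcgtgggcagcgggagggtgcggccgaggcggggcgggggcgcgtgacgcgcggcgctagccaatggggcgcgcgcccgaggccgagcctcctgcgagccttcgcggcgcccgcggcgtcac
Klf4 (chr4:55532476-55532725, minus strand): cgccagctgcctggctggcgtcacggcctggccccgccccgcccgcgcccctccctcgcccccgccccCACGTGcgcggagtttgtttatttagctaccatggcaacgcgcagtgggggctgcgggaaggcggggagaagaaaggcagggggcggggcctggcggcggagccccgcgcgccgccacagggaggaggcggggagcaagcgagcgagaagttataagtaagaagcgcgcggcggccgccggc
Klf6 (chr13:5861239-5861488, plus strand): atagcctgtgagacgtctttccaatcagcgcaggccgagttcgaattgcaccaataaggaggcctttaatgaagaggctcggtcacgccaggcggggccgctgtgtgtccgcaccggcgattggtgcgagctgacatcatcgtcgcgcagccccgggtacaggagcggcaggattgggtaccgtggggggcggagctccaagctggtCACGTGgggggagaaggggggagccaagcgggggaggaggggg
Klf11 (chr12:24651121-24651370, plus strand): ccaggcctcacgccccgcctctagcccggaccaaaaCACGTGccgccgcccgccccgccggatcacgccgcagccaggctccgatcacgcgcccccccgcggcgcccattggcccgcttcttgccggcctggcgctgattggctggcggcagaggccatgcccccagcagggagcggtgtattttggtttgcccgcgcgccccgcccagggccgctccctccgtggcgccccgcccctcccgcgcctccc
Klf15 held 2 copies, 228 to 223 and 172 to 167 bases before its start, and the other three held 1 each. In Klf4 it lay 182 to 177 bases before the start, in Klf6 43 to 38 and in Klf11 214 to 209. The GC box GGGCGG was found in 7 of the 8 windows, all but that of Klf9, against 32.7% of all promoters. The core CACCC was in 5 of 8 (Klf2, Klf3, Klf9, Klf13 and Klf15) against 52.0%, the cyclic AMP response core TGACGT in 2 of 8 (Klf9 and Klf13) against 6.47%, and the glucocorticoid receptor motif TGTTCT in 0 of 8 against 16.1%, each on either strand. The GC box and CACCC can share bases with neighbouring matches. The members' windows were GC-rich, at 59.6% to 78.4% G and C, while the median over all promoters was 52.4%. A match is a description of these letters and not a site shown to be bound.

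Library totals were 15987580 to 22680212 counts, of which 34.6% to 40.9% came from genes of the mitochondrial genome. Levels below are normalised CPM, counts over a library's scaled total, computed with TMM library factors, which were 0.809 to 0.932 in the sham libraries and 1.08 to 1.20 in the TAC libraries. Prodh itself, which the virus was meant to raise, lay at 10.4 to 11.5 CPM after sham and 6.18 to 8.37 after TAC with the vector, and at 12.6 to 14.8 and 12.3 to 14.7 with PRODH. With either surgery every PRODH library was above every vector library, and by edgeR's quasi-likelihood test (Benjamini-Hochberg adjusted) the difference passed after TAC (log2 fold change 0.90 ± 0.10 SE, adjusted p = 2.19e-08) but not after sham (0.33 ± 0.10, adjusted p = 0.0517). The cardiomyocyte label was checked against 12 markers, which were all expressed: among them Tnnt2 and Myh6, they summed to 47700 to 55180 CPM in sham libraries and 37260 to 43100 in TAC libraries. Markers of other cells were present too. The 12 endothelial markers summed to 618.5 to 764.6 CPM in vector sham, 692.2 to 749 in PRODH sham, 865.4 to 994 in PRODH TAC and 1178 to 1351 in vector TAC, and no marker on these lists was at 0 throughout a group. Fewer cells of a type and less RNA per cell cannot be told apart in such bulk libraries.

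The study's first aim was to compare TAC with sham under the control vector. Of the 9 tested Kruppel-like genes, 7 rose (Klf2, Klf3, Klf4, Klf6, Klf10, Klf11 and Klf13) and 2 fell (Klf9 and Klf15), the fall of Klf9 turning to a rise of 0.05 (adjusted p = 0.595) when libraries were scaled by size alone. Calls are edgeR adjusted p-values under 0.05, here and below. In this comparison 56.5% of all tested genes were called, 30.3% higher and 26.2% lower. The sham and TAC libraries did not overlap for any of the 9 members, which held for 47.1% of all genes. The members' median log2 fold change was 0.73, against 0.02 over all genes. Scaling by library size alone raised that median of all genes to 0.37, and the share of called genes that were higher from 53.6% to 86.2%. Under it the 7 rises stayed calls, at 0.80 to 1.37, and Klf15 still fell (-0.38, adjusted p = 0.00139).

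**Figure D1:**
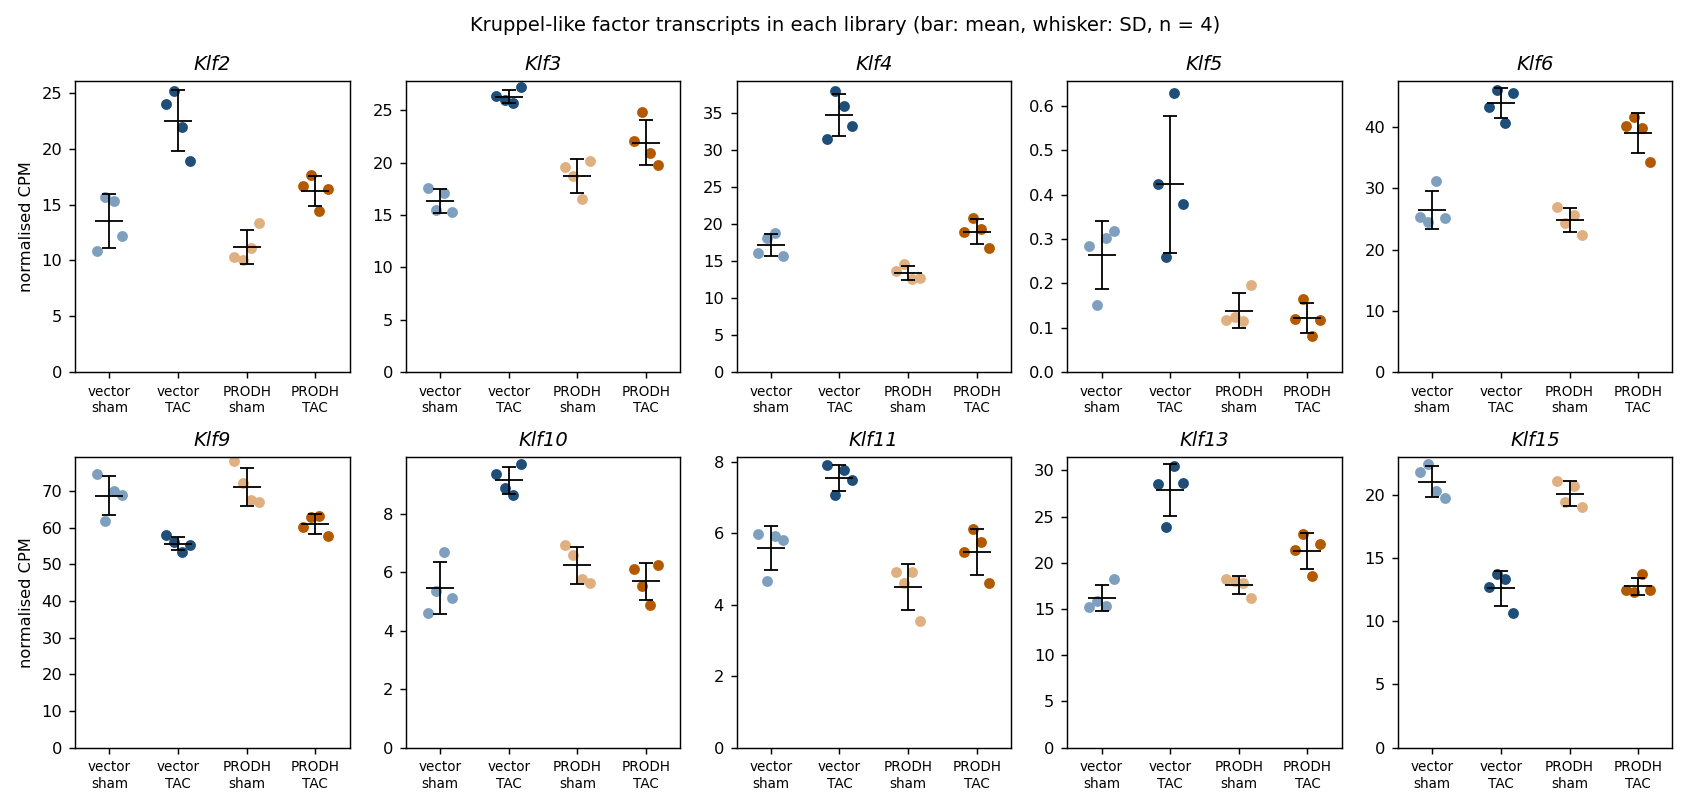
Normalised CPM (linear axes from 0, one panel per gene) of the 10 Kruppel-like genes in each of the 16 libraries, grouped by virus and surgery; points are libraries, bars the group mean and whiskers the SD of 4. Klf4 has its highest 4 values in vector TAC (31.6 to 38.1 CPM), Klf15 falls to about the same level in both TAC groups, and Klf5 stays below 0.63 CPM; Klf9 is lower after TAC on this scale but not with scaling by library size alone.

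Klf15 gave the larger of the falls. In vector sham the 4 libraries had 21.8, 22.4, 20.3 and 19.7 CPM, and in vector TAC they had 12.7, 13.8, 13.3 and 10.6. The PRODH sham libraries stood at 21.1, 19.4, 20.7 and 19.0 CPM and the PRODH TAC libraries at 12.5, 12.3, 13.8 and 12.5. Thus all 8 TAC libraries lay below all 8 sham libraries, and within a surgery the viruses overlapped. TAC lowered Klf15 by 0.74 ± 0.09 (log2 ± SE, adjusted p = 1.72e-08) under the vector, to 0.600 of its sham level. Under PRODH it fell by 0.65 ± 0.08 (adjusted p = 7.2e-07), and with scaling by library size alone by 0.28 (adjusted p = 0.018). Between PRODH TAC and vector TAC the difference was 0.02 ± 0.09 (adjusted p = 0.893), with a 95% interval from -0.15 to 0.19. The TAC effects of the 2 virus arms differed by 0.08 ± 0.12 (adjusted p = 0.645, interval -0.15 to 0.32).

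Klf9, a repressor that glucocorticoids and thyroid hormone are known to induce, was the most abundant member per kilobase of gene in the sham groups. Its levels were 74.5, 61.8, 69.9 and 68.8 CPM in vector sham and 57.9, 56.1, 53.3 and 55.4 in vector TAC. PRODH sham had 78.1, 72.2, 67.6 and 66.9 CPM and PRODH TAC 60.3, 63.0, 63.3 and 57.6. The TAC libraries were the lower ones with either virus, without overlap, but by a margin that is small beside that of Klf15. The fall was 0.30 ± 0.07 under the vector (adjusted p = 0.000549) and 0.22 ± 0.07 under PRODH (adjusted p = 0.0137), and scaled by library size alone both turned to rises that were not called (0.05, and 0.15 with adjusted p = 0.112). The call under PRODH was also lost when PRODH TAC library 4 (adjusted p = 0.0692), PRODH sham library 1 (0.134) or PRODH sham library 2 (0.0733) was left out. Klf9 after TAC did not differ by call between the viruses (0.13 ± 0.07, adjusted p = 0.126), and it passed when only the groups compared were fitted (0.18, adjusted p = 0.0317).

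A list of 22 genes known to be linked to Klf15, for branched-chain amino acid, proline, glucose and fatty acid use and for the potassium channel subunit Kcnip2, was read beside Klf15 itself. It includes Prodh, which the virus carried. Under the vector 21 of the 22 fell after TAC, with a median of -0.675, and the other, Ppara, stood at -0.47 (adjusted p = 0.0609). Scaled by library size alone 14 fell and the median was -0.32. Kcnip2 went from 80.2 ± 4.89 CPM (SD, n = 4) in vector sham to 41.7 ± 3.60 in vector TAC, and Slc2a4, the insulin-responsive glucose transporter, from 186 ± 13.1 to 108 ± 8.94. Both falls remained calls with either scaling. After TAC 17 of the 22 were higher with PRODH than with the vector (median 0.30), or 16 of 21 without Prodh, beside 18.5% of all tested genes. Kcnip2 stood at 67.2 ± 3.70 CPM in PRODH TAC (0.69 ± 0.07 above vector TAC) and Slc2a4 at 155 ± 15.2 (0.52 ± 0.08). Bcat2, the mitochondrial branched-chain aminotransferase, did not pass (0.05, adjusted p = 0.599). In that same comparison the Klf15 transcript had the value of 0.02 given above. The part of Klf15 in the values of these genes was not tested. Under PRODH 18 of the 22 fell after TAC (median -0.42), and scaled by library size alone 6 fell and 3 rose. Of the 12 cardiomyocyte markers 10 fell and 0 rose after TAC under the vector (median -0.39), or 4 and 2 by library size alone. Under PRODH 8 fell and 1 rose, or 2 and 5 by library size alone. After TAC 4 were higher and 1 lower with PRODH (median 0.02). The part of cardiomyocyte RNA in the values of Klf15 and the 22 genes was not tested.

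**Figure D2:**
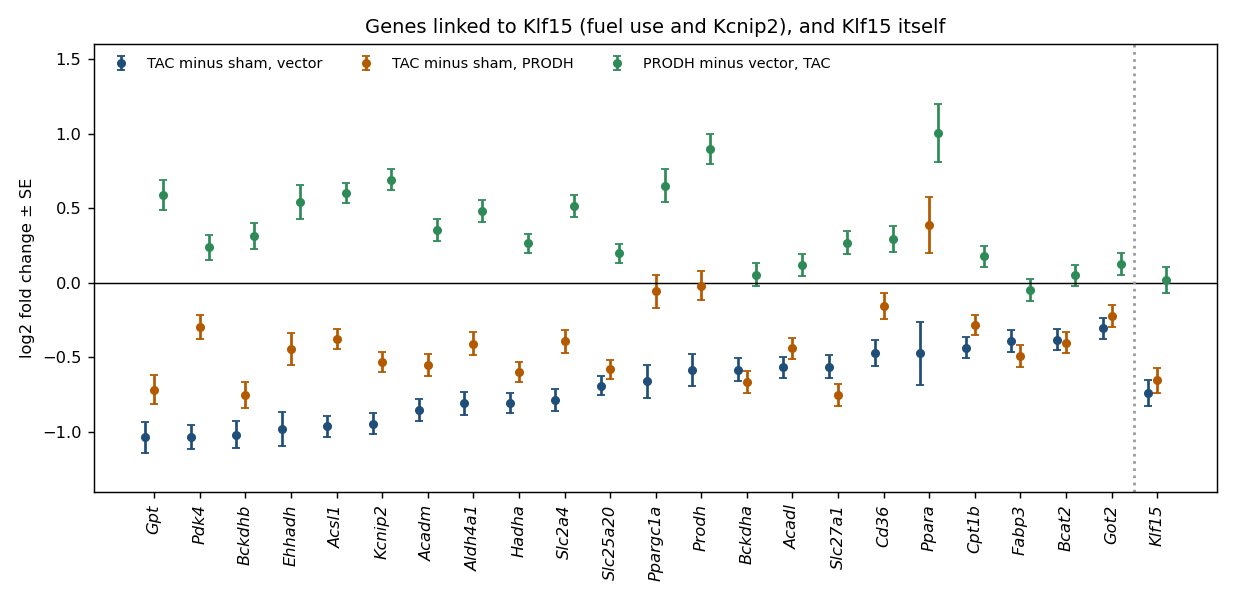
Log2 fold changes ± SE of the 22 genes linked to Klf15 (left, ordered by the change under the vector) and of Klf15 (right of the dotted line), for TAC against sham with each virus and for PRODH against vector after TAC. The vector TAC values lie below 0 for all 22 genes and the green values of 17 are called higher with PRODH, while Klf15 sits at 0.02; scaled by library size alone Got2 turns to 0.04 under vector TAC, and 6 of the 22 fall and 3 rise under PRODH TAC.

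Of 9 growth genes that Klf15 is known to restrain, 5 rose after TAC under the vector (median 2.24), or 8 with scaling by library size alone, among them the natriuretic peptide genes Nppa (4.19) and Nppb (2.24) and the matrix signalling gene Ccn2 (3.17). After TAC 5 of the 9 were lower with PRODH than with the vector, Nppa by -2.66, Nppb by -1.16 and Ccn2 by -2.62, and 2 were higher (Myocd 0.55 and Mef2c 0.29). The transcription factors Srf (-0.19, adjusted p = 0.102) and Gata4 (-0.01, adjusted p = 0.949) were not called under TAC with the vector. By library size alone Gata4 became a called rise (0.35, adjusted p = 0.000619) and Srf did not (0.16, adjusted p = 0.172).

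Genes of the hormone and clock pathways that are known to act on Klf15 and Klf9 were read beside them. Of 13 genes of the glucocorticoid response, 9 rose and 2 fell after TAC under the vector (median 0.67), or 11 and 1 with scaling by library size alone, and 10 were lower and 2 higher with PRODH after TAC (median -0.53). Fkbp5, a chaperone gene that glucocorticoid receptor induces, had 7.66 ± 0.717 CPM (SD, n = 4) after sham and 26.3 ± 1.51 after TAC with the vector, and 8.46 ± 0.351 and 7.89 ± 0.463 with PRODH. It rose by 1.77 under the vector, where Klf15 and, with TMM scaling, Klf9 fell. The receptor genes went apart: Nr3c2, the mineralocorticoid receptor, fell by 1.07 and Nr3c1, the glucocorticoid receptor, rose by 0.18 (adjusted p = 0.0452). Of 18 clock genes, 13 rose and 3 fell under the vector. In the sham hearts 12 were higher with PRODH and 4 lower (11 and 2 with scaling by library size alone), beside 2.81% and 2.20% of all genes. Dbp, a clock output gene, stood at 19.3 ± 0.946 CPM in vector sham and 50.6 ± 5.52 in PRODH sham, a difference of 1.39 ± 0.08. In those libraries Klf15 differed by -0.07 ± 0.08 (adjusted p = 0.779), Klf9 by 0.05 (adjusted p = 0.805) and Klf10 by 0.19 (adjusted p = 0.492). The sources used here give no hour of collection, and its part in any of these values was not tested.

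Klf4 had the largest rise of the 9 members. The vector sham libraries held 16.1, 18.1, 18.8 and 15.7 CPM and the vector TAC libraries 31.6, 38.1, 36.0 and 33.3. With PRODH the sham libraries had 13.7, 14.6, 12.6 and 12.7 CPM and the TAC libraries 18.9, 20.9, 19.3 and 16.8. The vector TAC values were all above every other library, and PRODH sham was below vector sham without overlap. For every other tested member the sham groups overlapped, while 10.4% of all genes had no overlap, counting both directions. TAC raised Klf4 under the vector (2.02-fold, log2 1.01 ± 0.09, adjusted p = 3.03e-11) and raised it by 0.50 ± 0.09 under PRODH (adjusted p = 6.85e-05). After TAC it was lower with PRODH by -0.87 ± 0.08 (adjusted p = 8.06e-10). Klf4 was the 1 member called in the sham hearts, where 5.0% of all genes were called, at -0.36 ± 0.09 (adjusted p = 0.0155). That call was lost with scaling by library size alone (-0.34, adjusted p = 0.0632) and when PRODH sham library 3 (0.0737), vector sham library 2 (0.0560) or vector sham library 3 (0.0713) was left out.

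Klf2 is known to be induced by shear stress in endothelium. Vector sham had 10.8, 15.7, 15.3 and 12.2 CPM and vector TAC 24.1, 25.2, 22.0 and 18.9. PRODH sham had 10.3, 10.02, 11.1 and 13.3 CPM and PRODH TAC 16.6, 17.6, 14.4 and 16.4. Each TAC group lay above its sham group, and the sham groups overlapped. The rise was 0.73 ± 0.11 under the vector (adjusted p = 2.17e-06) and 0.54 ± 0.11 under PRODH (adjusted p = 0.000548). After TAC Klf2 was lower with PRODH (-0.47 ± 0.11, adjusted p = 0.000679), while the difference in the sham hearts was not called (-0.28, adjusted p = 0.221).

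Of 10 endothelial genes that Klf2 or Klf4 are known to control in either direction, 8 rose and 1 fell after TAC under the vector (median 1.04). After TAC 7 were lower and 1 higher with PRODH (median -0.52). Nos3, the endothelial nitric oxide synthase, went from 9.80 CPM in vector sham to 21.9 in vector TAC, with 9.85 in PRODH sham and 15.9 in PRODH TAC. Thbd, the anticoagulant receptor thrombomodulin, went from 24.7 to 57.4 CPM, with 30.6 in PRODH sham and 38.6 in PRODH TAC. Both are genes these factors are known to activate, and Edn1 (1.37) and Vcam1 (1.15), which they are known to repress, rose as well. The general endothelial markers moved the same way: all 12 rose under the vector (median 1.02, Pecam1 1.18), and all 12 were lower with PRODH after TAC (median -0.45, Pecam1 -0.53). In the sham hearts, where Klf4 was lower with PRODH, 1 of the 12 was called, Egfl7 at 0.29, and the sums overlapped. The part of endothelial RNA in the values of Klf2 and Klf4 was not tested.

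Klf4 also belongs to the immediate early genes, which can be switched on while cells are being isolated. Of 25 tested genes of that kind, 16 rose and 2 fell under TAC with the vector (median 0.31), or 23 and 1 with scaling by library size alone, and 21 were lower with PRODH after TAC (median -0.66). With the vector their summed level was 648.8 to 710.8 CPM after sham and 813.6 to 859.8 after TAC, and with PRODH 585.2 to 623.7 and 560.1 to 616.2. Single genes did not all follow Klf4 with TMM scaling: under the vector Atf3 was lower after TAC (-0.79) and Egr1 stood at 0.05 (adjusted p = 0.504). Nr4a1 had 32.9 CPM in vector sham and 33.2 in vector TAC against 15.4 in each PRODH group. By library size alone Egr1 (0.41, adjusted p = 3.81e-05) and Nr4a1 (0.37, adjusted p = 0.000796) rose after TAC under the vector, and Atf3 stayed lower (-0.43, adjusted p = 0.000279). The part of the isolation in the values of Klf4, Klf6 and Klf10 was not tested.

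Klf5 was close to the limit of detection. With the vector its counts were 4, 3, 5 and 6 after sham and 10, 5, 12 and 7 after TAC, and with PRODH they were 2, 2, 2 and 3 after sham and 3, 4, 2 and 3 after TAC. On the CPM scale the group means were 0.264 ± 0.0757 (SD, n = 4), 0.423 ± 0.154, 0.138 ± 0.0394 and 0.121 ± 0.0343 in that order. The vector TAC counts were all above the PRODH TAC counts, which do not exceed 4. Fitted without the filter on low counts, over 28413 genes, Klf5 was lower in PRODH TAC than in vector TAC (-1.74 ± 0.58, edgeR adjusted p = 0.0162) and not called for TAC under the vector (0.68 ± 0.55, adjusted p = 0.440). Of 10 genes linked to Klf4 or Klf5 in smooth muscle and fibroblasts, 6 rose and 2 fell under the vector (8 and 1 with scaling by library size alone). After TAC 6 were lower and 1 higher with PRODH. The 10 include Nppa, counted above among the growth genes, and Ccnd1 and Cdkn1a, so not all are genes of these cell types. Igf1, a growth factor gene, rose by 2.10 under the vector. The smooth muscle genes differed: Acta2, smooth muscle actin, fell by 0.85, Tagln, an actin-binding protein gene, rose by 0.60, and Cnn1 (0.33, adjusted p = 0.30) and Myh11 (0.21, adjusted p = 0.092) were not called. By library size alone Cnn1 (0.68, adjusted p = 0.029) and Myh11 (0.57, adjusted p = 0.000114) became called rises. Of 9 mural cell markers, which include Acta2, Tagln and Myh11, 6 rose and 2 fell under the vector, and 5 were lower and 2 higher with PRODH after TAC. With the vector they summed to 426 to 446.4 CPM after sham and 521.3 to 579 after TAC, and with PRODH to 414.3 to 447.5 and 488.9 to 557. The part of mural cell RNA in the values of the members was not tested.

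Klf10 and Klf11 are repressors that TGF-beta is known to induce and that recruit the Sin3 corepressor. Klf10 had 4.62, 5.38, 6.70 and 5.13 CPM in vector sham and 9.35, 8.88, 8.64 and 9.69 in vector TAC. PRODH sham had 6.94, 6.60, 5.78 and 5.65 CPM and PRODH TAC 6.11, 5.53, 4.87 and 6.25. The vector TAC libraries thus stood alone, and the other 3 groups overlapped. Klf10 rose by 0.74 ± 0.12 under the vector (adjusted p = 3.48e-06). Under PRODH its value was -0.13 ± 0.12 (adjusted p = 0.411), or 0.24 (adjusted p = 0.108) with scaling by library size alone. After TAC it was lower with PRODH by -0.68 ± 0.11 (adjusted p = 1.19e-05).

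Klf11 was the least abundant of the tested members per kilobase of gene. Its levels were 5.97, 4.67, 5.91 and 5.82 CPM in vector sham and 7.90, 7.06, 7.75 and 7.47 in vector TAC. In PRODH sham they were 4.90, 4.61, 4.93 and 3.55 CPM and in PRODH TAC 5.47, 6.11, 5.76 and 4.6. Vector TAC was again above all other libraries. The rise under the vector was 0.44 ± 0.12 (adjusted p = 0.00263), and after TAC Klf11 was lower with PRODH by -0.46 ± 0.12 (adjusted p = 0.00178). Under PRODH TAC gave 0.28 ± 0.13 (adjusted p = 0.0854), which became a call at 0.66 with scaling by library size alone (adjusted p = 0.000202), and without PRODH TAC library 4 (0.0281), PRODH sham library 1 (0.0468) or vector sham library 2 (0.0452).

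Of 13 genes of the TGF-beta pathway, 9 rose under the vector (median 0.98) and 10 were lower with PRODH after TAC (median -0.705). Among the ligands Tgfb2 rose by 1.98 and was lower with PRODH by -1.51, and Tgfb1 gave 1.02 and -0.87. Of the receptors Tgfbr2 gave 1.46 and -0.70, while Tgfbr3 was not called in either comparison (0.02, adjusted p = 0.872, and 0.13, adjusted p = 0.236). The feedback inhibitor Smad7 gave 1.10 and -0.90. The signal carriers Smad2 (0.15, adjusted p = 0.221), Smad3 (-0.19, adjusted p = 0.226) and Smad4 (0.14, adjusted p = 0.146) were not called under TAC with the vector. Scaled by library size alone 12 of the 13 rose, with Smad2 (0.50, adjusted p = 0.000193), Smad4 (0.50, adjusted p = 2.43e-05) and Tgfbr3 (0.37, adjusted p = 0.00161) among them. All 12 fibroblast markers rose under the vector (median 2.82), and all 12 were lower with PRODH after TAC (median -1.53). With the vector they summed to 313.3 to 480.5 CPM after sham and 2171 to 2416 after TAC, and with PRODH to 440.8 to 469.9 and 636.3 to 810.1. Myeloid markers summed to 129.8 to 203.6, 373.8 to 404.6, 193.9 to 235.1 and 209.9 to 259.2 CPM in the same order, and their part, like that of fibroblast RNA, in the values of the members was not tested.

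Klf6, an activator known from injury and fibrosis, kept its rise with either virus. It had 25.3, 24.5, 31.1 and 25.2 CPM in vector sham and 43.2, 46.0, 40.7 and 45.6 in vector TAC. PRODH sham had 27.0, 24.4, 25.6 and 22.5 CPM and PRODH TAC 40.2, 41.7, 39.9 and 34.4. All 8 TAC libraries were above all 8 sham libraries. TAC raised Klf6 by 0.73 ± 0.08 under the vector (adjusted p = 1.29e-08) and by 0.65 ± 0.08 under PRODH (adjusted p = 6.42e-07). The difference between the viruses after TAC was -0.17 ± 0.08 (adjusted p = 0.0884), and the TAC effects differed by -0.08 ± 0.12 (adjusted p = 0.666, 95% interval -0.31 to 0.15). Thbs4, a matricellular gene that Klf6 is known to repress in cardiomyocytes, went from 2.24 ± 0.221 CPM (SD, n = 4) to 88.4 ± 11.3 under the vector and from 1.80 ± 0.459 to 6.16 ± 0.920 under PRODH. Its TAC effects differed by -3.52 ± 0.24 (adjusted p = 8.5e-12), and the part of Klf6 in this value was not tested.

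Klf13, which is known to act with Gata4 in the developing heart, had 15.2, 15.9, 15.3 and 18.2 CPM in vector sham and 28.5, 23.8, 30.5 and 28.6 in vector TAC. PRODH sham had 18.3, 18.1, 17.8 and 16.2 CPM and PRODH TAC 21.4, 23.1, 18.6 and 22.0. The groups stepped up from both shams through PRODH TAC to vector TAC, with overlap between the shams alone. Klf13 rose by 0.78 ± 0.09 under the vector (adjusted p = 1.06e-08) and by 0.27 ± 0.09 under PRODH (adjusted p = 0.0171), a call lost without PRODH TAC library 2 (adjusted p = 0.0707). After TAC it was lower with PRODH by -0.39 ± 0.08 (adjusted p = 0.000429).

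Klf3, a repressor that works through the CtBP corepressors, varied little among the vector TAC libraries. It had 17.6, 15.5, 17.1 and 15.3 CPM in vector sham and 26.4, 26.0, 25.7 and 27.2 in vector TAC. PRODH sham had 19.5, 18.7, 16.5 and 20.2 CPM and PRODH TAC 22.0, 24.8, 20.9 and 19.8, so that with PRODH sham and TAC overlapped. The rise was 0.69 ± 0.08 under the vector (adjusted p = 4.24e-08). Under PRODH it was 0.23 ± 0.08 (adjusted p = 0.0338), and the call was lost when PRODH TAC library 1 (0.0669), PRODH TAC library 2 (0.166) or PRODH sham library 3 (0.0897) was left out. After TAC Klf3 was lower with PRODH by -0.27 ± 0.08 (adjusted p = 0.00835), a call lost without PRODH TAC library 4 (-0.19, adjusted p = 0.0828) and with scaling by library size alone (-0.22, adjusted p = 0.0562). Counts of Klf3 were fractional in 4 libraries, and the gene overlaps Gm20033 on the other strand, which had at most 4.05 counts in a library.

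The study's second aim was to compare PRODH with vector after TAC. Of the 9 tested members 6 were lower with PRODH (Klf2, Klf3, Klf4, Klf10, Klf11 and Klf13), in a comparison where 43.1% of all genes were called and 24.6% were lower. No member was called higher in the main edgeR fit or by DESeq2, and in the main edgeR fit none was higher at an unadjusted p under 0.05. Klf9 stood at 0.13 (adjusted p = 0.126). It became a call when only the groups compared were fitted (0.18, adjusted p = 0.0317), without PRODH TAC library 4 (0.19, adjusted p = 0.0451) and without any 1 of the 8 sham libraries (0.18, adjusted p from 0.0322). Leaving out a sham library changed the library that TMM takes as its reference to vector TAC library 4, and with that reference all 16 libraries gave 0.18 (adjusted p = 0.0423). The groups did not overlap for 6 of the 9, against 39.3% of all genes. The median over the members was -0.39 and over all genes -0.04. The members not called were Klf6, Klf9 and Klf15, and all 6 that were lower with PRODH were among the 7 that TAC raised under the vector. These comparisons share the vector TAC libraries, so each member's values are given side by side and no agreement between them is read.

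**Figure D3:**
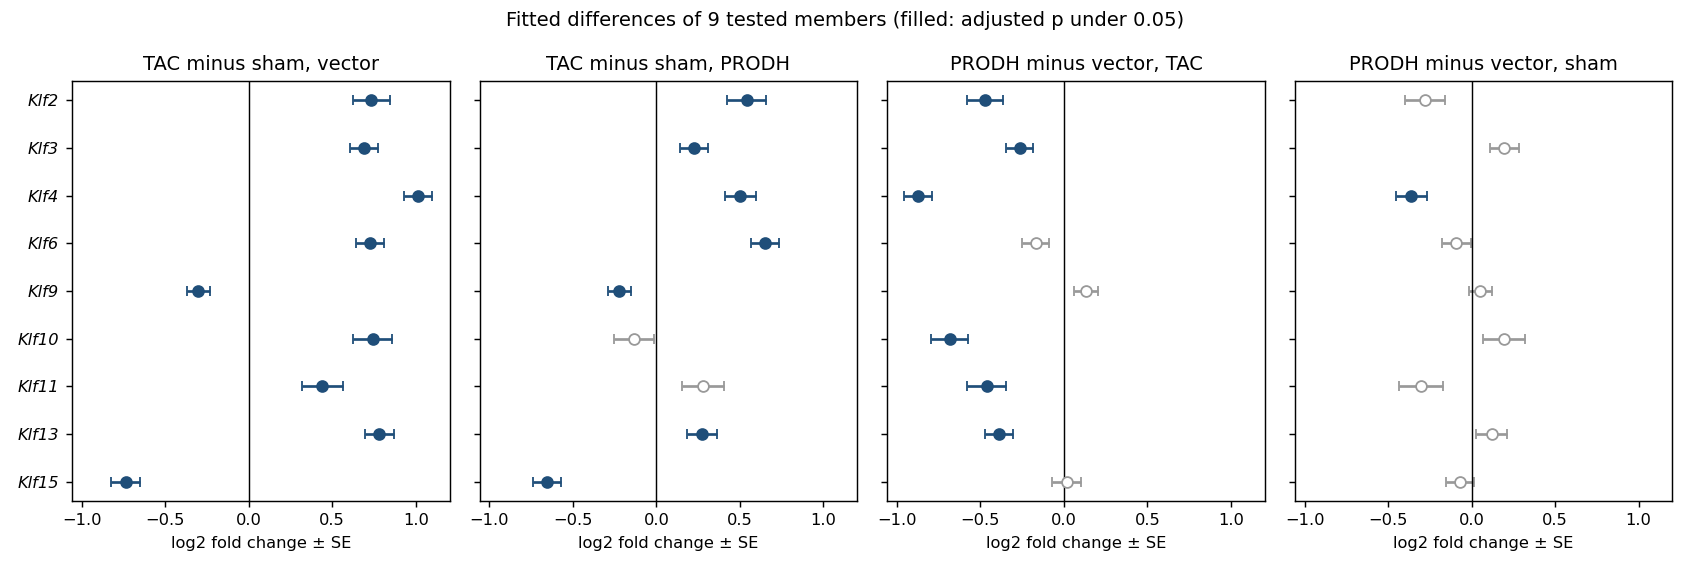
Fitted log2 fold changes ± SE of the 9 tested members in 4 comparisons, with filled points for edgeR adjusted p under 0.05. TAC under the vector gives 7 rises and 2 falls, PRODH against vector after TAC gives 6 lower members, and in the sham hearts Klf4 is the 1 filled point; scaled by library size alone Klf9 turns to a rise after TAC with either virus and Klf10 under PRODH turns from -0.13 to 0.24.

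With PRODH TAC raised 5 of the 9 members (Klf2, Klf3, Klf4, Klf6 and Klf13) and lowered 2 (Klf9 and Klf15), of which Klf9 turned to 0.15 with scaling by library size alone. In this comparison 35.0% of all genes were called, 17.2% higher and 17.8% lower, and the groups did not overlap for 6 of the 9 members against 34.7% of all genes. The members' median was 0.27, against 0.02 over all genes. Scaling by library size alone raised the median of all genes to 0.395 and the share of called genes that were higher from 49.2% to 96.2%. The members then had a median of 0.65, with 6 rises and 1 fall. Whether TAC acted differently with the viruses was tested as an interaction, for which 26.8% of all genes were called 10.9% in the positive and 15.8% in the negative direction. No member was called positive (edgeR and DESeq2, nor at an unadjusted p under 0.05), and 4 of the 9 were negative: Klf10 (-0.88 ± 0.17, adjusted p = 0.000221), Klf4 (-0.51 ± 0.12, adjusted p = 0.00277), Klf13 (-0.51 ± 0.13, adjusted p = 0.00299) and Klf3 (-0.46 ± 0.12, adjusted p = 0.00419). For Klf2 (-0.19 ± 0.16, adjusted p = 0.399) and Klf11 (-0.16 ± 0.18, adjusted p = 0.537), which were lower with PRODH after TAC, the TAC effects were not shown to differ between the viruses. In the sham hearts both had values below 0 that missed the threshold (-0.28, and -0.30 with adjusted p = 0.231).

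**Figure D4:**
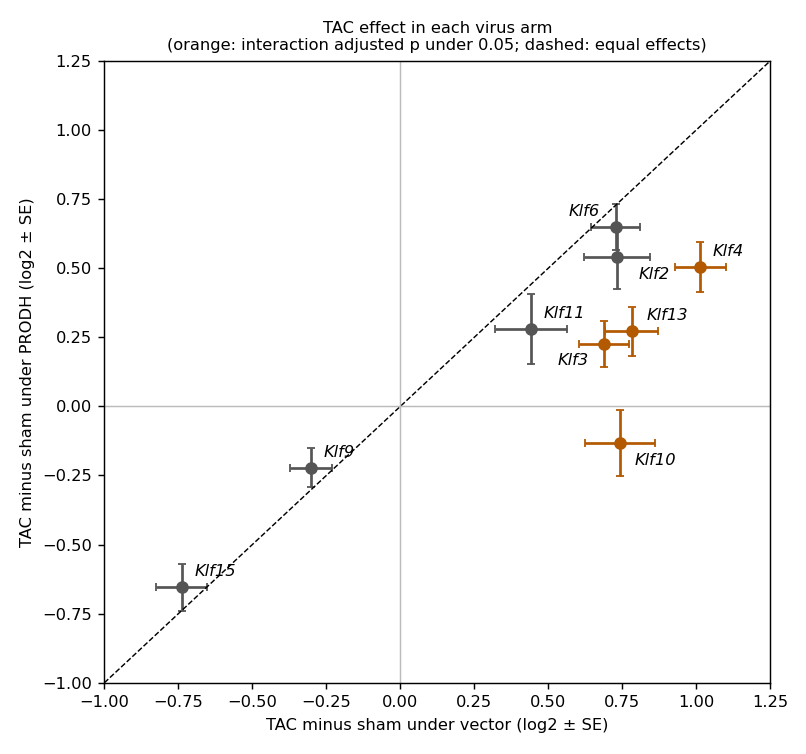
TAC effect (log2 fold change ± SE) of each tested member under the vector (x axis) against that under PRODH (y axis); the dashed line marks equal effects and orange points are called for the difference. Klf15, Klf6 and Klf9 lie near the line, and Klf10, Klf4, Klf13 and Klf3 lie below it; scaled by library size alone Klf9 is above 0 with both viruses (0.05 and 0.15) and Klf10 under PRODH (0.24).

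Levels between genes were compared per kilobase of the deposited gene length. In vector sham Klf9 led with 15.3 CPM per kilobase, followed by Klf3 (10.5), Klf15 (9.39), Klf2 (7.31), Klf6 (6.28), Klf4 (5.67), Klf13 (2.53), Klf10 (1.79), Klf11 (1.37) and Klf5 (0.0787). Neighbours whose libraries overlapped were Klf3 with Klf15, Klf2 with Klf6 and Klf6 with Klf4. In vector TAC the order was Klf3 (16.8), Klf9 (12.4), Klf2 (12.2), Klf4 (11.5), Klf6 (10.4), Klf15 (5.62), Klf13 (4.35), Klf10 (3.00), Klf11 (1.85) and Klf5 (0.126). There Klf9, Klf2, Klf4 and Klf6 overlapped each with the next, as did Klf15 with Klf13. Klf15 thus passed from the third place to the sixth, behind Klf2, Klf4 and Klf6. PRODH sham kept the order of vector sham, from Klf9 (15.9) and Klf3 (12) through Klf15 (8.96) to Klf5 (0.0412). In PRODH TAC Klf3 (14.0) and Klf9 (13.6) led, and the mean of Klf15 (5.70) stood below that of Klf4 (6.26). Overlapping neighbours were Klf2 with Klf6 in PRODH sham, and Klf3 with Klf9, Klf6 with Klf2 and Klf4 with Klf15 in PRODH TAC.

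**Figure D5:**
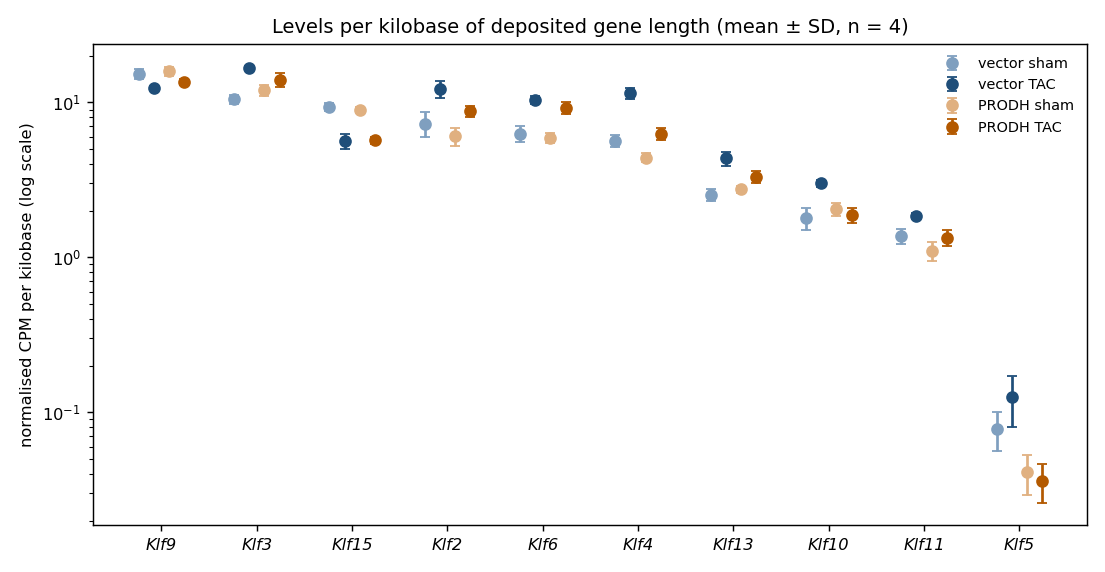
Levels of the 10 members in normalised CPM per kilobase of deposited gene length on a log scale, as mean ± SD of 4 libraries per group, ordered by vector sham. Klf9 and Klf3 are at 10.5 to 16.8 in all 4 groups, while Klf5 lies below 0.13 in each.

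The genes whose pattern over the 16 libraries was most like that of a member were sought among 8057 candidates of at least 5 CPM, as the smallest root mean square difference of centred log2 CPM. For Klf4, which spans 1.59 log2 units between its lowest and highest library, they were Lhfp (0.140), Dynll1 (0.149) and Pdlim3 (0.149). Those nearest to Klf13 were Zcchc24 (0.0604), Arid5b (0.0950) and Map4 (0.0974), with a span of 0.998. Klf6, with a span of 1.03, had Slc30a4 (0.103), Sh3bp4 (0.105) and Kctd12b (0.115). Nearest to Klf10, whose span is 1.05, were Lrrc8a (0.137), Arl8a (0.139) and Pkp4 (0.140). A span is a range and each difference is an average over libraries, so their sizes are not compared. The likeness describes these libraries alone.

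Of 16 other Kruppel-like and Sp genes, 7 passed the filter on low counts. Under the vector TAC raised Klf7 (0.75 ± 0.11, adjusted p = 8.54e-07), Sp1 (0.61) and Sp2 (0.45), and the other four tested were Klf12 (-0.04, adjusted p = 0.827), Klf16 (0.34, adjusted p = 0.127), Sp3 (0.02, adjusted p = 0.926) and Sp4 (-0.35, adjusted p = 0.0823). Scaled by library size alone 5 of the 7 rose, Klf16 (0.69, adjusted p = 0.00246) and Sp3 (0.38, adjusted p = 0.0251) being added. With PRODH after TAC Sp4 (0.72 ± 0.16, adjusted p = 0.000601) and Sp3 (0.32) were higher, and Klf16 (-0.52) and Sp2 (-0.46) lower. The 9 untested genes had at most 8 counts in any library, and Sp8 had 0 in all 16. Among 12 cofactors and ubiquitin ligases of the family, 3 rose and 3 fell under the vector, or 9 and 1 with scaling by library size alone. The first counts are close to the shares of all tested genes, 30.3% higher and 26.2% lower. Hdac1 rose by 0.76, and the ubiquitin ligase gene Fbxw7 fell by 0.83 and was higher with PRODH after TAC (0.66). Sin3a, the partner of Klf10 and Klf11, stood at 0.08 (adjusted p = 0.499), or at a called 0.43 by library size alone (adjusted p = 0.00108). Ctbp2, a partner of Klf3, rose by 0.39. The MEK5, ERK5 and MEF2 route is known to switch on Klf2 and Klf4. Of its 7 genes 2 rose (Mapk7 0.92 and Map3k3 0.48) and 2 fell (Mef2a -0.49 and Mef2d -0.27), again close to those shares of all genes. Scaling by library size alone gave 4 rises and took both falls out of the calls (-0.13 for Mef2a and 0.09 for Mef2d). After TAC 4 of the 7 were higher with PRODH and 0 lower (median 0.26), with the same counts by library size alone. Over all tested genes 18.5% were higher and 24.6% lower in that comparison. The part of this route in the values of Klf2 and Klf4 was not tested.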

How the data were processed

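RNA was sequenced from isolated cardiomyocytes in 16 libraries, 4 per group. Per the labels' protocols, TRIzol extraction and DNase I treatment preceded library preparation (SMARTER mRNA-Seq kit). The values are estimated counts deposited by the authors, beside a gene length in bases. Not given in the sources used here are the definition of that length, the build, the annotation and the tools for alignment and counting. Counts are fractional in 1 or more libraries for 9538 of 57010 gene models. The 4 deposited group mean columns were not used.

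Counts were rounded and tested with edgeR 4.0.16 (limma 3.58.1, data.table version 1.17.8, R 4.3.3): filterByExpr (minimum count 10, minimum total 15), TMM factors and a robust quasi-likelihood fit of all 16 libraries by group, with no block. Benjamini-Hochberg adjustment ran over the 14066 genes kept, within each of 5 comparisons, at a threshold of 0.05. SE is the absolute log2 fold change divided by the square root of the F statistic, and 95% intervals are 1.96 SE wide on each side. CPM are counts over total times TMM factor. The test was checked on simulated counts in which few genes changed, in either direction. It recovered 68.7% to 74.6% of 1.5-fold changes, and 3.76% to 6.35% of its calls were false. With so few changes it does not bear on the choice of library scaling. Within groups no 2 libraries had identical counts. Estimates with few counts, such as those of Klf5, have the least precision.

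Genes named were drawn from the 10 members, Prodh, 25 fixed landmarks, the members of each list with the smallest p in the 2 main comparisons, all other Kruppel-like and Sp genes tested, and, for the 3 members with the smallest p in each main comparison, the 3 genes of most similar pattern (log2 prior count 2). Landmarks not taken up above are given here as mean CPM in vector sham and then vector TAC. Cd36 had 1098 and 790.8, Pttg1 54.11 and 37.34, Maob 29.39 and 13.76, and Per1 12.3 and 20.63. Tsc22d3 had 36.55 and 68.88, Nr1d1 28.51 and 13.12, Fos 63.48 and 45.33, and Col1a1 15.31 and 209.5. Scaled by library size alone, the changes of Cd36, Pttg1 and Fos were not called. Some further list genes (Srf, Gata4, Smad2, Smad3, Smad4, Tgfbr3, Edn1, Sin3a, Ctbp2, Mef2d, Tagln, Cnn1, Myh11) were named after their values were seen. Members, lists and the rule were chosen with earlier results of these data known. Alternatives were DESeq2 1.42.0, relative log expression factors, library size alone, no filter, no mitochondrial genes, only the groups compared, a replicate block, each library left out in turn and, chosen after seeing the data, another TMM reference library.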

Additional observations from a re-analysis of the deposited data

Results flagged for a closer look

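In 4 of the 40 groups of 4 libraries checked (10 members in 4 groups), 1 library stood apart from the rest, where chance flags about 1 in 20 groups. PRODH sham library 4 had 0.197 CPM of Klf5, above the other three, a difference of 1 count. Vector sham library 3 had 31.1 CPM of Klf6, above the others and still below all vector TAC libraries. Vector sham library 2 had 4.67 CPM of Klf11, below the others of its group. PRODH TAC library 3 had 13.8 CPM of Klf15, above the others of its group and below every sham library.

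For 4 members the TAC effect differed between the viruses by edgeR's interaction test: Klf10 (-0.88, adjusted p = 0.000221), Klf4 (-0.51, adjusted p = 0.00277), Klf13 (-0.51, adjusted p = 0.00299) and Klf3 (-0.46, adjusted p = 0.00419). Each rose by 0.69 to 1.01 under the vector, and under PRODH the values were -0.13 for Klf10 (0.24 with scaling by library size alone), 0.50 for Klf4, 0.27 for Klf13 and 0.23 for Klf3.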

How the results depend on the processing

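DESeq2, relative log expression factors, no filter on low counts and leaving out mitochondrial genes each kept the direction and the call of all 45 member values. With the replicate number as a block all 45 kept them too, and 6 members were lower with PRODH after TAC, as without it. Whether the numbers pair the samples was not settled. After each group's own mean was taken from the log2 CPM of every gene, same-numbered libraries of the groups compared correlated at -0.093 to 0.168. Number 1 correlated best with number 1 in every comparison of groups (0.0337 to 0.168), which did not hold for the other numbers. Correlations this weak can neither show a pairing nor exclude it. Scaling by library size alone kept 39 of 45. It left 1 member falling after TAC with each virus in place of 2, 0 in place of 1 lower with PRODH after sham, 5 in place of 6 lower with PRODH after TAC, and 6 in place of 5 raised by TAC under PRODH. Reversed under it were Klf9 after TAC under the vector (0.054) and under PRODH (0.154), and Klf10 under PRODH (0.242). The cause was not tested. Fitting only the groups compared gave 1 member higher with PRODH after TAC, Klf9, in place of 0, and so did TMM with vector TAC library 4 as the reference, an alternative chosen after seeing the data.

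With 1 library left out at a time, TAC under PRODH raised 3 to 6 members and lowered 1 to 2, PRODH after TAC had 0 to 1 higher, and PRODH after sham 0 to 1 lower. Klf9 with PRODH after TAC became a call in 9 of these 16 fits, in 8 of which the TMM reference had changed to vector TAC library 4. Values near 0 changed sign: Klf15 with PRODH after TAC ran from -0.0546 to 0.0605, the Klf6 interaction from -0.116 to 0.0137 and Klf9 after sham from -0.000314 to 0.0858. Depth limits Klf5, whose counts do not exceed 12.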
